A study of Homo sapiens with 9 samples.

Results

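Replication-dependent histone genes encode the linker histone H1 and the core histones H2A, H2B, H3 and H4 that package newly made DNA in S phase. They were taken as the protein-coding genes whose current symbol begins H1- with a number from 1 to 6, or H2AC, H2BC, H3C or H4C followed by a number. Of 64 such genes in the annotation, 61 had a row in the count table of 57163 genes, 19818 of them protein-coding. These were 6 H1, 15 H2A, 16 H2B, 11 H3 and 13 H4 genes. By position, 49 lay in the large cluster at 6p22 on chromosome 6, 9 at 1q21 and 2 at 1q42 on chromosome 1, and 1 at 12p12 on chromosome 12. H2AC19, H3C2 and H3C3 had no row under their current identifiers and are not counted as members.

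Most mRNAs end in a poly(A) tail, whereas replication-dependent histone mRNAs end just after a short stem-loop. The stem-loop is bound by SLBP and cut by a complex that includes the U7 snRNP, and these mRNAs are made in S phase and degraded when DNA synthesis stops. RNA-seq libraries made through poly(A) tails hold few of them, and some of these genes are also known to give longer, polyadenylated transcripts.

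The cells were 293T, an established line derived from human embryonic kidney, and RNA-seq was made of 9 conditions with 1 library each. In 8 of them the cells had been transfected for 48 h with the plasmid pLV[Exp]-EGFP-EF1A carrying the open reading frame of a human transcription factor (TF) behind the EF1A promoter. NRF1, E2F4, EGR1 and ZBTB7A formed the CLB_TF class, the TFs whose binding favours conserved lncRNAs, and HOXA11, RORA, TFCP2 and NKX2-8 formed the control TF class. The ninth library, called the control library here, is a blank in the labels and an empty control plasmid in the methods of the study. Since each condition had 1 library, each difference from the control library describes a pair of libraries and has no replicate check, and intervals of ratios cover counting error only.

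The libraries held 14177970 to 18915400 counts. Scaling factors by TMM were 0.972 to 1.08. Genes with at least 1 count numbered 26166 for NRF1, 26296 for EGR1 and 23344 to 24593 in the other libraries. Each inserted TF had its highest level in its own library, at 2560 to 15100 CPM (the count scaled to library size) over the 8 TFs. The 6 markers of 293T cells (NEFL, NEFM, INA, VIM, KRT8, KRT18) summed to 1670 to 2210 CPM. The fibroblast markers summed to 23.4 to 39.7 CPM, nearly all of it COL1A1, and the hepatocyte markers to 0 to 0.999 CPM, with no count of TTR. The leukocyte marker PTPRC had 1 count in all 9 libraries together. The sources used here do not say whether RNA was selected by its poly(A) tail.

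The stem-loop is the feature that sets these mRNAs apart, so its sequence was read for every member from GRCh37. All 61 members held a match to the histone stem-loop consensus within 100 bases after the stop codon, starting 23 to 63 bases after it. Of all 19763 coding genes searched, 67 held one, or 0.339%. The other 6 genes were H2AC19, H3C2, H3C3, H2AX, H3-4 and H3-7, all histone genes. The members had 10 distinct sequences of 16 bases. They are given as DNA on the coding strand, with the loop of 4 bases in capitals, for the 4 common forms and for H3C6, the gene that rose in the most libraries.
H1, H2A, H2B and H3 form, 35 members including H1-2, H2AC25, H2AC6 and H3C10: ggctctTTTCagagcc
H4 form, 8 members including H4C3 and H4C8: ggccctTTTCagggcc
Form with a loop that ends in A, 8 members including H2BC12, H2BC11, H2BC5 and H2BC4: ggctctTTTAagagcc
H4 form with a loop of T, 4 members including H4C14: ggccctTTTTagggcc
H3C6 only, chr6:26225824-26225839, plus strand: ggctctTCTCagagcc
All 8 members with the loop TTTA in the third form were outside the H4 type, and H2BC12, the most abundant member, was one of them (chr6:27114145-27114160, minus strand). The first 6 bases of the stem separated H4 genes from the other types in all 13 H4 genes.

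Where the counted interval ended decides whether reads past the stem-loop of a histone gene were counted. Reads in the coding sequence were counted in either case and do not tell stem-loop mRNAs from longer transcripts. For 29 members the counted interval was the coding sequence alone, and for 38 it ended fewer than 100 bases past the stem-loop. For the other 23 it ran 100 bases or more past the stem-loop, as for H3C6 (chr6:26224427-26227701 of GRCh37, plus strand), with 1862 such bases of 2679 counted in 2 exon blocks. In H2AC6 (chr6:26124373-26139344, plus strand) it was 1128 of 1668 bases, also in 2 blocks. The interval of H2BC12 (chr6:27114197-27114577, minus strand) was 381 bases with none past the stem-loop. The hexamer AATAAA, the usual signal for polyadenylation, lay within 1000 genomic bases after the stop codon in 29 members, against 62% of the genes searched. In H1-2 it began 56 bases after the stop codon, and in H2BC12 there was none in that window. The authors kept uniquely mapped reads, and for 43 members every stretch of 100 bases was unique in the genome. H3C14, H3C15, H4C12, H4C14 and H4C15 had no unique stretch, so their counts are uncertain. H4C14 and H4C15 have identical coding sequences (100%), as have H3C14 and H3C15. In H2BC12, 71.6% of the stretches were unique. Counted intervals of 19 members overlapped another gene of the table, and no source used here says whether the counting used strand.

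Many H2A and H2B genes lie head to head and share 1 promoter. There were 12 such divergent pairs with at most 1000 bases between the gene starts of the annotation. Those starts are not always the starts of the counted intervals. In 10 of the pairs H2A faced H2B with 169 to 250 bases between the annotated starts. Promoter windows of RefSeq (GRCh38.p14, 250 bases before to 50 after the start) were found for 56 members. Exact matches on either strand were counted, and a match is a description of the letters only. The TATA box TATAAA was present in 67.9% of the members and 14% of all 27305 genes with a window. The CCAAT box was present in 83.9% against 39.7%, and the octamer ATTTGCAT, the site of POU2F1 (OCT1), in 42.9% against 2.19%. The octamer was found in 11 of 14 H2A and 12 of 16 H2B genes and in none of the 6 H1 and 11 H4 genes. Of the 9 H3 genes, 1 (H3C4) had it, in a window that is also listed for H2AC7 and not in its other window. The 56 members had 60 windows, and a member was counted where any of its windows held the letters. Windows of divergent partners can overlap, so the same letters can count for both genes. The octamer and a TATA box shared by the windows of H2AC6 and H2BC4 did so, and the shares of members are thus not of separate sites. The site GCATGCGC of NRF1 was in none of the members and in 3.68% of all genes, and the site GCGTGGGCG of EGR1 in none and in 0.96%. Either of the E2F sites TTTCCCGC and TTTGGCGC was in 1.79% of members and 2.75% of all genes, and the GC box GGGCGG in 26.8% and 48.3%. No match says only that those letters are not in the window.

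Windows of 3 members show these elements, with the TATA box, the CCAAT box and the octamer in capitals on either strand. H2AC6 is shown because it and its divergent partner H2BC4, with 218 bases between them, both rose in the NRF1 library, H2BC12 because it held the most counts, and H3C6 because it rose in 4 libraries.
H2AC6, chr6:26123922-26124221, plus strand: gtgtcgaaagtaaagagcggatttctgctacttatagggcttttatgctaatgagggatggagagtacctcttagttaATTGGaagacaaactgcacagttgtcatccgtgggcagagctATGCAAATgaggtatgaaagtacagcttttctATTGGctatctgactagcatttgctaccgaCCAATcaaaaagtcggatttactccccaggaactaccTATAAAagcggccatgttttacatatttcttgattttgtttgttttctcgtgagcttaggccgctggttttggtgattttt
H2BC12, chr6:27146809-27147108, minus strand: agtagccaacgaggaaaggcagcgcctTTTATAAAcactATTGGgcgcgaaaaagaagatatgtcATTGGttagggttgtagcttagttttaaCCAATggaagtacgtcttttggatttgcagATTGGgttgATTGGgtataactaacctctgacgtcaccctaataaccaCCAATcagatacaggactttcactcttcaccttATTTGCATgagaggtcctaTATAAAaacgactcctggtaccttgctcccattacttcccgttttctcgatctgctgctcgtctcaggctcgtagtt
H3C6, chr6:26224885-26225184, plus strand: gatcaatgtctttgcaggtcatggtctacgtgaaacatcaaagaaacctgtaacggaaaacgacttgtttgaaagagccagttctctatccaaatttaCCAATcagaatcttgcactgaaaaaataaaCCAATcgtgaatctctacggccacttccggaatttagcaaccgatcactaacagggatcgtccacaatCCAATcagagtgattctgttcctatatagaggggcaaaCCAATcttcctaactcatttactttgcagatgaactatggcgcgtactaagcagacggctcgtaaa
The windows of H2AC6 and H2BC12 held all 3 elements, and this window of H3C6 held CCAAT boxes alone. A second window listed for H3C6, chr6:26223928-26224227 on the plus strand, held a TATA box and a CCAAT box.

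The members were low as a group, with a few exceptions. Their median level was 0.374 CPM per kb of counted exon, against 1.69 for all protein-coding genes and 87.6 for 11 replication-independent histone genes, which are used outside S phase as well. Most such genes give polyadenylated mRNAs, and H2AX, 1 of the 11, also carries the stem-loop. Summed over the members the level was 152 (TFCP2) to 226 CPM (NRF1), and summed over those 11 it was 2490 to 3100 CPM. No member reached the level of H1-10, the highest of them at 286 CPM per kb. Of the 61 members, 9 had 0 counts in all 9 libraries (H1-1, H1-5, H2AC1, H2AC7, H2AC17, H2BC1, H2BC10, H3C4 and H4C13). A floor of 3 counts over the 9 libraries together allows a level of up to 0.0202 CPM for a gene whose reads were all counted. H2AC7, H2AC17, H3C4 and H4C13 overlap another gene of the table, and no source used here says how shared reads were counted. Their level is therefore not bounded by that floor. Another 17 had counts but never above 5 in a library, 26 in all with the former, and 25 had a mean of at least 0.5 CPM. H2BC12 took 38.0% of the 26878 counts of the members, and H2BC12, H2AC25 and H1-2 together took 68.7%.

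**Figure D1:**
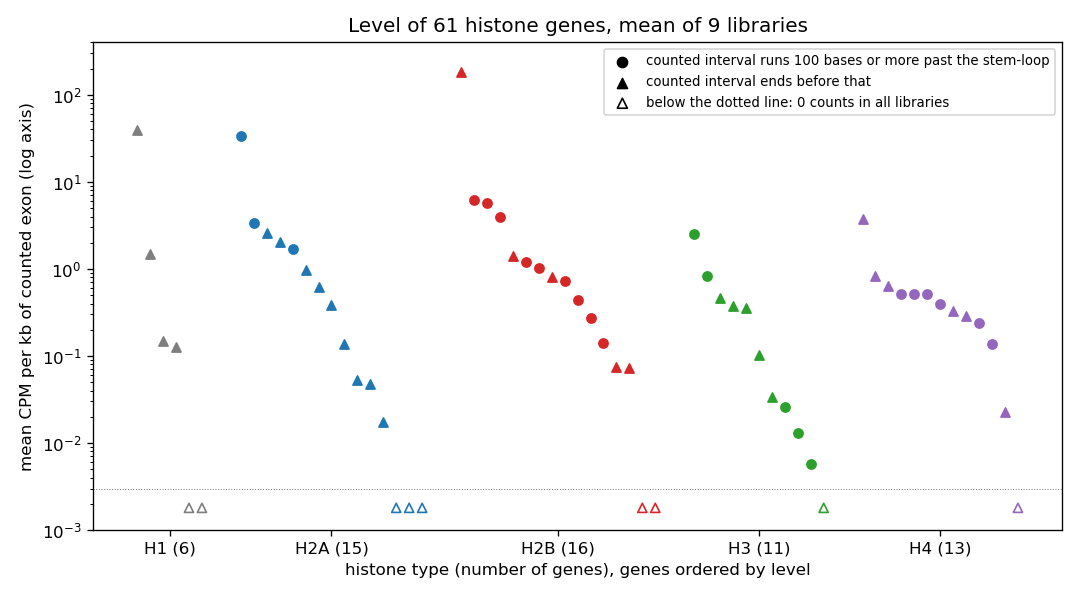
Mean level of each of the 61 genes over the 9 libraries in CPM per kb of counted exon (log axis), grouped by histone type and ordered by level, with open symbols below the dotted line for the 9 genes with 0 counts. H2BC12 stands highest at 181, followed by H1-2 at 39.6 and H2AC25 at 33.8, and no other gene is above 6.26.

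Level and counted interval went together. Among the 23 members counted past the stem-loop none had 0 counts in all libraries, 3 never passed 5 counts and 18 had a mean of at least 0.5 CPM. Among the 38 counted up to it, 9 had no counts, 23 never passed 5 and 7 reached that mean. These counts and CPM are not per length, and the intervals of the first set were also the longer ones. Per kb of counted exon the median was 0.513 CPM in the first set and 0.143 in the second. Yet H2BC12 and H1-2 belong to the second set. This split was made after the counts were seen and was not tested.

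H1 genes encode the linker histones, which bind DNA between nucleosomes. H1-2 had 467 counts in the control library, 436 in NRF1, 460 in E2F4, 519 in EGR1, 334 in ZBTB7A, 391 in HOXA11, 462 in RORA, 359 in TFCP2 and 349 in NKX2-8. On the CPM scale it ranged from 20.6 (TFCP2) to 32.4 (EGR1), and its ratios to the control library of 0.809 (0.703 to 0.931) in TFCP2 and 1.28 (1.12 to 1.45) in EGR1 both stayed under 2-fold. H1-4, next in level, had 32 counts in the control library and 31 in RORA, against 12 in NRF1, 13 in E2F4, 21 in EGR1, 12 in ZBTB7A, 13 in HOXA11, 15 in TFCP2 and 19 in NKX2-8. The control and RORA libraries thus stood above the other 7. H1-6, the testis linker histone, had 11 counts in the NRF1 library, 1 each in RORA and NKX2-8 and 0 in the other 6, which is below 1 CPM throughout. H1-3 never passed 4 counts.

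H2A and H2B form the dimers of the nucleosome. H2AC25 at 1q42 held 403 to 560 counts and ranged from 25.4 (TFCP2) to 34.9 CPM (NRF1), a span of 1.37-fold. H2AC6 was at 4.24 CPM in the control library, 9.33 in NRF1, 5.26 in E2F4, 6.74 in EGR1, 3.66 in ZBTB7A, 4.58 in HOXA11, 4.17 in RORA, 4.12 in TFCP2 and 8.96 in NKX2-8. NRF1 and NKX2-8 stood apart, with 148 and 135 counts against 53 to 108 in the other 7 libraries. H2AC11 ranged from 2.49 (ZBTB7A) to 5.77 CPM (E2F4) and H2AC13 from 0.812 (EGR1) to 2.14 CPM (NRF1). H2AC20 had 4 counts in ZBTB7A, 8 in HOXA11 and 12 to 21 in the others. H2AC15 had 2 counts in the control library, 14 in NRF1 and 4 to 8 in the rest, and the other H2A members never passed 7 counts.

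Among H2B genes, H2BC12 ranged from 58.0 CPM (1013 counts, TFCP2) to 85.2 (1351 counts, NRF1), with the control library at 62.8. With so many counts the ratio for NRF1 of 1.36 had a counting interval of 1.25 to 1.47, and those of the other TF libraries lay between 0.923 and 1.15. H2BC11 had its highest level in NRF1, 10.2 CPM where the control library was at 5.16 and the other 7 at 3.89 to 7.05, and its ratio of 1.97 (1.52 to 2.56) was just under 2-fold. H2BC21, at 1q21, had its highest level in EGR1 (12.4 CPM), followed by the control library (10.5), NRF1 (10.2) and E2F4 (9.68). The ZBTB7A, NKX2-8, TFCP2, HOXA11 and RORA libraries were at 6.81 to 8.28. H2BC5 ranged from 3.50 (RORA) to 6.43 CPM (EGR1).

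H2BC4 and H2BC6 were lower in level, with a like order of libraries at the top. H2BC4 had 12 counts in the control library, 39 in NRF1, 8 in E2F4, 22 in EGR1, 10 in ZBTB7A, 13 in HOXA11, 16 in RORA, 15 in TFCP2 and 13 in NKX2-8. H2BC6 had 13 counts in the control library, 32 in NRF1, 15 in E2F4, 24 in EGR1, 16 in ZBTB7A, 18 in HOXA11, 19 in RORA, 13 in TFCP2 and 15 in NKX2-8. For both NRF1 was highest and EGR1 next, and the EGR1 ratios of 2.11 (0.998 to 4.67) and 2.12 (1.04 to 4.53) gave log2 fold changes (log2FC, computed with a prior count of 2 in each library) of 0.95 and 0.97, under 2-fold on that scale. H2BC15 ranged from 3.03 (TFCP2) to 5.24 CPM (NKX2-8), H2BC26 from 1.73 (NKX2-8) to 3.56 CPM (EGR1) and H2BC18 from 0.483 (RORA) to 1.51 CPM (NRF1). H2BC17 had 5 to 13 counts, and the other H2B members never passed 10.

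H3 and H4 form the tetramer at the core of the nucleosome, and their replication-dependent genes gave the fewest counts. H3C10 had 57 counts in the control library and 33 (ZBTB7A) to 67 (TFCP2) in the TF libraries, and no change reached 2-fold. H3C6 had 19 counts in the control library, 70 in NRF1, 34 in E2F4, 43 in EGR1, 32 in ZBTB7A, 27 in HOXA11, 29 in RORA, 43 in TFCP2 and 31 in NKX2-8. The control library was thus the lowest of the 9 for H3C6, and all 8 TF libraries were above it. The other H3 members never passed 8 counts. Of the 2 H4 genes with the highest level per kb, H4C3 had 17 (NRF1) to 39 counts (control) and H4C11 had 4 to 9. H4C8 had 40 counts in NRF1 and 29 in NKX2-8 against 11 to 17 in the others, control included. H4C14 had 35 counts in NKX2-8, 23 in E2F4 and 9 to 17 in the rest, and its identical copy H4C15 had 8 in both of those libraries and 2 to 5 in the rest. H4C5 went the other way, with 21 counts in the control library and 7 (HOXA11) to 15 in the TF libraries. H4C9 had 3 to 13 counts and H4C4 1 to 8.

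Summed by type, H2B made up 52.1 to 57.2% of the members' level, H2A 21.1 to 26.8%, H1 12.9 to 17.1%, H4 3.08 to 5.09% and H3 2.66 to 4.6%. These shares are of CPM and are not per length. The order of H2B, H2A and H1 was the same in all 9 libraries, and H3 was above H4 in NRF1 (9.40 against 8.20 CPM), ZBTB7A (5.74 against 5.60), HOXA11 (5.29 against 4.94) and TFCP2 (6.98 against 5.72). The TFCP2 library had the lowest sum for H1, H2A and H2B, at 21.5, 35.9 and 81.6 CPM. The NRF1 library had the highest for H2A, H2B and H3, at 53.4, 126 and 9.40 CPM, against 41.0, 93.1 and 4.57 in the control library. EGR1 was highest for H1 at 33.9 CPM (control 27.2) and NKX2-8 for H4 at 9.55 CPM (control 6.09). Without the most abundant member of each type the highest library was RORA for H1 and NRF1 for H4. The span from the lowest to the highest library was 1.49-fold for H2A, 1.55-fold for H2B, 1.58-fold for H1, 1.94-fold for H4 and 2.06-fold for H3.

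**Figure D2:**
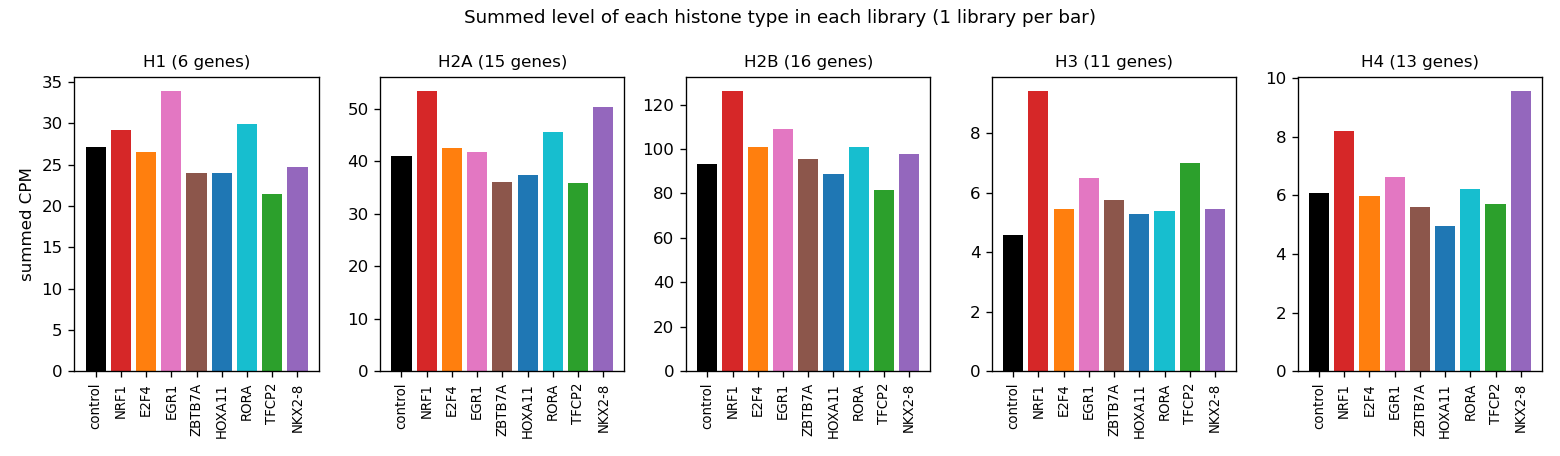
Summed CPM of the members of each histone type in each library, 1 bar per library with no replicate, each panel on its own scale from 0. NRF1 is highest for H2A, H2B and H3, EGR1 for H1 at 33.9 and NKX2-8 for H4 at 9.55.

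By cluster, the summed level at 6p22 was 114 (TFCP2) to 174 CPM (NRF1), with 126 in the control library. At 1q21 it was 9.12 (ZBTB7A) to 15.8 CPM (EGR1), with 12.9 in the control library. At 1q42, where H2AC25 and H2BC26 face each other with 229 bases between them, it was 27.2 (TFCP2) to 38.0 CPM (NRF1), with 32.9 in the control library. H4C16, alone at 12p12, had 5 to 15 counts. The libraries at the extremes of 1q21, where H2BC21 gave most of the level, were thus not those of 6p22 and 1q42.

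Each TF library was then set against the control library to ask which of these genes differed with the TF. A gene was called changed when its log2FC was at least 1 either way and the higher of both libraries was at 1 CPM or more. In the NRF1 library 6 of the 21 members that reached 1 CPM changed, where 6.57% of protein-coding genes did. In E2F4 2 of 18 changed, where the share was 3.46%. In EGR1 1 of 20 changed (2.28%), and in ZBTB7A 2 of 18 (1.88%). Among the control TFs 2 of 18 changed in HOXA11 (1.12%), 0 of 20 in RORA (0.558%), 1 of 17 in TFCP2 (0.407%) and 3 of 19 in NKX2-8 (2.74%). With 17 to 21 members per library, 1 gene is already a larger share than the background in every library but NRF1, so counts of 1 or 2 carry little. The higher of both libraries sets the minimum, so a gene can pass it only through the library where it is high. In NRF1 this held for H4C8, H2BC4 and H2BC6, at 0.652, 0.652 and 0.707 CPM in the control library. It held for H4C8 and H4C14 (0.489 CPM in the control library) in NKX2-8 and for H4C14 in E2F4. The background shares were not matched for level, so no excess of members is read from these counts. The 8 comparisons share the control library, so a gene that was by its own count low or high there moves in all of them.

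NRF1 activates genes of mitochondrial function, and its library had 5 members that rose and 1 that fell. H3C6 rose most, 70 against 19 counts, a ratio of 4.27 (2.54 to 7.52). H4C8 rose 3.87-fold (1.99 to 8.10), with 40 against 12 counts, and H2BC4 3.77-fold (1.93 to 7.91), with 39 against 12. H2BC6 rose 2.85-fold (1.46 to 5.93) and H2AC6 2.20-fold (1.66 to 2.93). All 5 lie at 6p22 and all 5 were counted past the stem-loop. Of the 21 members that reached 1 CPM, 16 lie at 6p22 and 15 were counted past the stem-loop, so most could only be of these kinds. H1-4 fell, with 12 against 32 counts and a ratio of 0.435 (0.204 to 0.867). For H3C6, H2BC4, H2BC6, H2AC6 and H4C8 the NRF1 library was the highest of all 9. The control library was the lowest of all 9 for H3C6 and H2BC6. Against the average of the control TF libraries, H3C6, H2BC4 and H4C8 still changed by the same rule, and H2BC6, H2AC6 and H1-4 did not pass it.

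**Figure D3:**
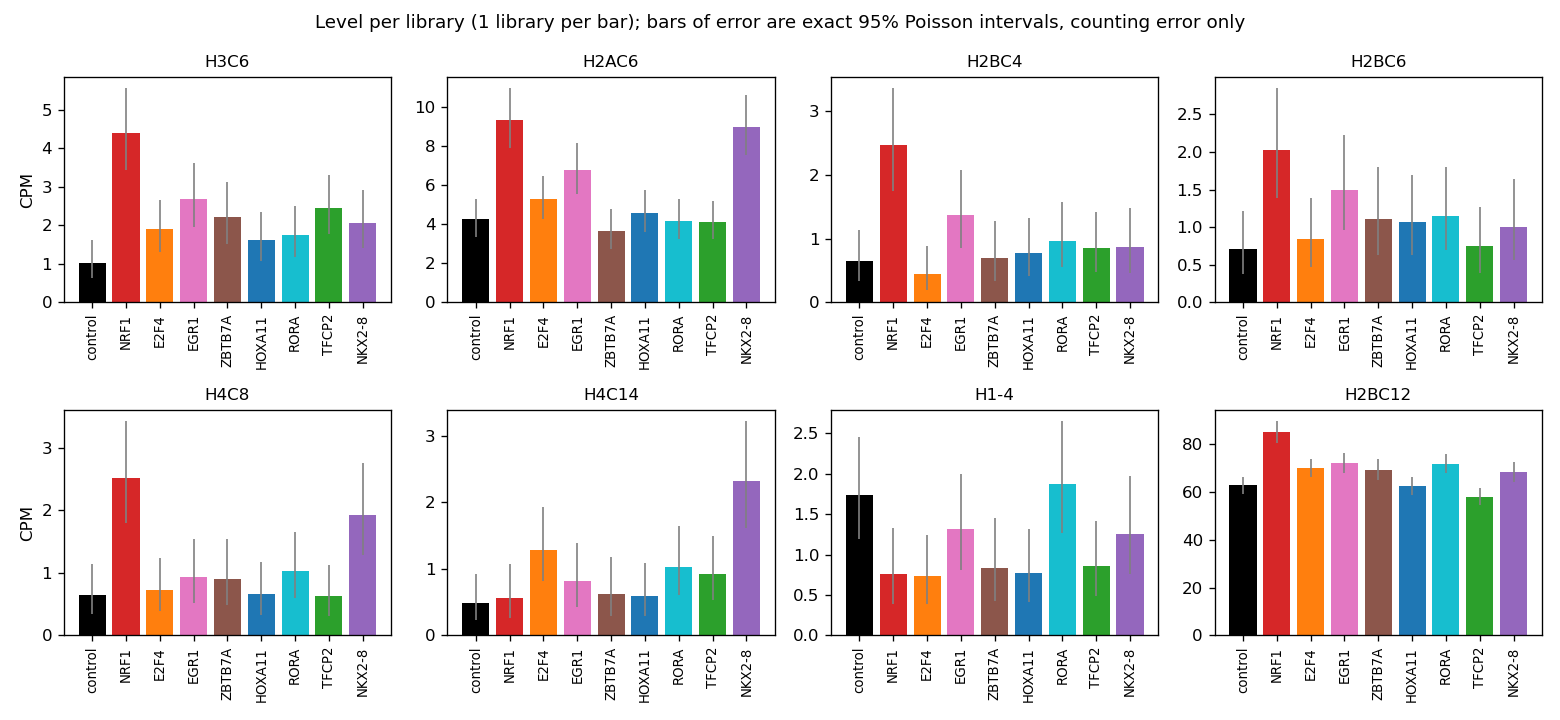
CPM of 7 members that changed in at least 1 library and of H2BC12 in each of the 9 libraries, with exact 95% Poisson intervals for counting error only. NRF1 is highest for H3C6, H2AC6, H2BC4, H2BC6 and H4C8, and NKX2-8 for H4C14 at 2.32 CPM.

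In the NKX2-8 library, of a homeodomain factor, H4C14 rose 4.75-fold (2.24 to 11.2), H4C8 2.95-fold (1.46 to 6.35) and H2AC6 2.11-fold (1.59 to 2.83). H2BC4, the divergent partner of H2AC6, had a ratio of 1.32 (0.556 to 3.17) there, against 3.77 in NRF1. In the E2F4 library H4C14 rose 2.63-fold (1.17 to 6.46) and H1-4 fell to 0.418 (0.201 to 0.819) of its control level. H3C6 was the member that changed in EGR1, 2.6-fold (1.48 to 4.72), and in TFCP2, 2.38-fold (1.36 to 4.33), and it rose in ZBTB7A as well, 2.14-fold (1.18 to 4.0). H2AC20 fell in ZBTB7A, with 4 against 19 counts and a ratio of 0.268 (0.0662 to 0.805). In HOXA11 H1-4 fell to 0.444 (0.214 to 0.870) and H4C5 to 0.365 (0.131 to 0.890), with 7 against 21 counts. H4C14 and H3C6 were lowest and H4C5 highest in the control library among all 9, so their ratios depend on its low or high count. H4C14 also had no unique stretch of 100 bases, so its counts and ratios are uncertain beyond counting error. In the 8 calls outside NRF1 and NKX2-8 no TF library had more than 43 counts.

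In some libraries most members at a mean of at least 0.5 CPM, whether or not they passed the rule, moved to one side. Over the 25 members at a mean of at least 0.5 CPM the median log2FC in NRF1 was 0.39, with 20 above 0 and 5 below, where the 13216 protein-coding genes at that level had a median of -0.04. In EGR1 it was 0.23 against -0.02. In RORA it was 0.14 against 0.00, in NKX2-8 0.13 against -0.02 and in E2F4 0.03 against -0.02. In HOXA11 it was -0.07 against 0.00, in TFCP2 -0.12 against -0.01 and in ZBTB7A -0.13 against -0.03. The medians of the 4 control TF libraries had an SD of 0.131, and those of NRF1 and EGR1 were the only ones above the highest of them, 0.14. NRF1 was the highest library for 12 of the 25 members, and TFCP2 the lowest for 7. The same count over all protein-coding genes is not given, so these counts are not shown to be particular to histone genes. In NRF1, 845 protein-coding genes rose and 12 fell by the 2-fold rule.

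The medians differed by counted interval in the same libraries. For the 18 of the 25 counted past the stem-loop the median log2FC in NRF1 was 0.60, and for the 7 counted up to it 0.11. In EGR1 the medians were 0.49 and -0.31. In E2F4 (0.09 and 0.02), NKX2-8 (0.15 and 0.12), TFCP2 (-0.15 and -0.12), ZBTB7A (-0.09 and -0.14), RORA (0.13 and 0.19) and HOXA11 (-0.05 and -0.32) the gaps were smaller. The summed levels did not part in this way in EGR1. Over all 23 members counted past the stem-loop and all 38 counted up to it, the summed ratios to the control library there were 1.15 (1.07 to 1.24) and 1.15 (1.08 to 1.23). In NRF1 they were 1.38 (1.29 to 1.49) and 1.26 (1.19 to 1.35). NRF1 and EGR1 are also the libraries with the most genes with counts, and the part of that in the medians was not tested.

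**Figure D4:**
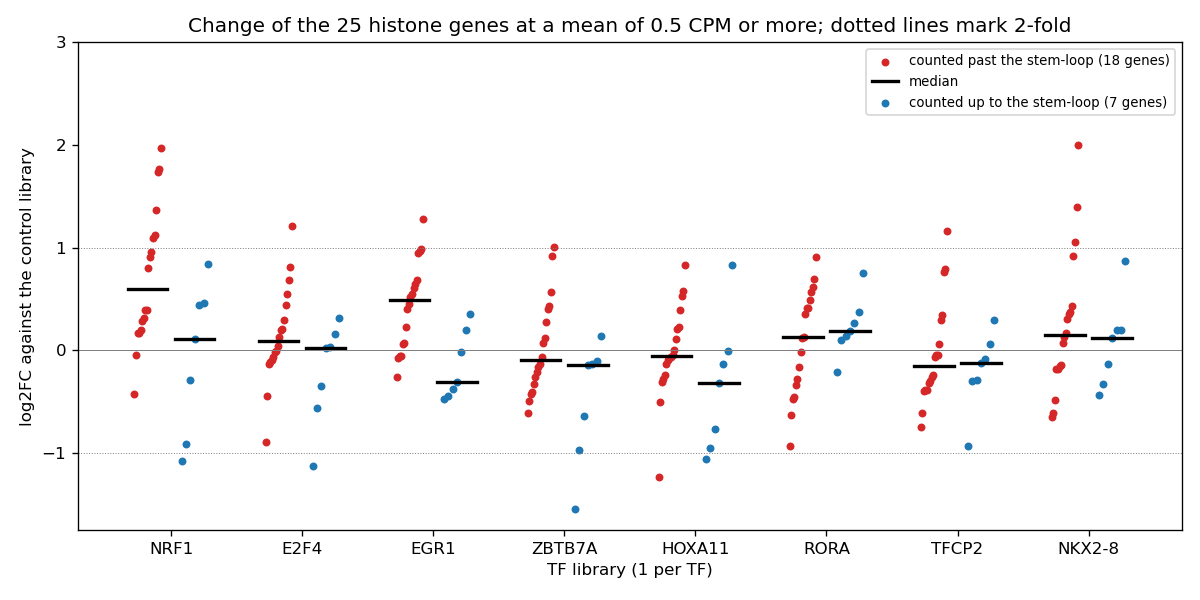
The log2FC against the control library of the 25 members at a mean of at least 0.5 CPM, in each TF library, split by whether the counted interval ran 100 bases or more past the stem-loop (18 genes, red) or not (7 genes, blue), with the median as a bar and 2-fold as dotted lines. The medians are 0.60 and 0.11 in NRF1 and 0.49 and -0.31 in EGR1. The summed level over all 23 and all 38 members of the 2 kinds was 1.15 times the control level in EGR1 for both.

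Partners of a divergent pair were often at unlike levels. H2BC12 was at 181 CPM per kb and its partner H2AC12, 250 bases away, at 0.622, with 1 to 7 counts per library. H2AC25 was at 33.8 and H2BC26 at 1.03, and H2AC6 was at 3.40 and H2BC4 at 1.21. H2BC11 and H2AC11, at 6.26 and 1.68, had log2FC of 0.96 and 0.39 in NRF1 and of 0.44 and 0.69 in E2F4. H2BC21 and H2AC20, at 4.0 and 2.06, had log2FC of -0.61 and -1.54 in ZBTB7A. H2AC1 and H2BC1, histones of the male germ line, had no counts at all.

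The genes that act on histone mRNAs changed little. None of the 11 genes of histone mRNA 3′ end processing changed in any TF library. SLBP, which binds the stem-loop, had log2FC of -0.31 in NRF1, 0.15 in E2F4 and -0.19 to -0.06 in the others, and the largest values of the list were 0.82 for MIF4GD in E2F4 and 0.68 for ZNF473, a U7 snRNP factor, in NKX2-8. Of 8 genes of histone transcription, CCNE1 and CCNE2 rose in E2F4, by 1.03 and 1.26 on the log2 scale, and none changed in the other 7 libraries. These encode cyclin E, which with CDK2 phosphorylates NPAT, the activator at histone loci. NPAT itself had log2FC of 0.02 in E2F4, and the median of the histone genes in that library was 0.03. Phosphorylation of NPAT was not measured, and a link of cyclin E to the histone genes was not tested.

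None of the 11 replication-independent histone genes, 10 histone chaperones or 14 S phase genes changed in any TF library. In NRF1 the first had a median log2FC of -0.22 with 0 of 11 above 0, the chaperones -0.18 with 1 of 10 above 0, and the S phase genes, such as PCNA and the MCM helicase genes, -0.19 with 0 of 14 above 0. The replication-dependent members thus had a median above 0 in the library where those 3 lists had medians below it. The lowest value of the first list was -0.35 for MACROH2A2 in NRF1. NAP1L1 had -0.45 in NRF1, the largest of the chaperones, and POLA1 -0.40 in NRF1, the largest of the S phase genes. H2BU1 of the first list was not matched.

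Of 10 RNAs without a poly(A) tail listed to show how RNA was selected, TERC was matched by identifier and RMRP by position, and the other 8 were not matched. TERC was at a mean of 0.497 CPM. RMRP, the RNA of RNase MRP, had 74 counts in the control library, 57 in TFCP2, 31 in RORA and 14 to 20 in the other 6. The control library was thus highest for RMRP, and the part of this in the changes of the histone genes was not tested. By position, H3C2 had 8 to 23 counts, H3C3 0 to 3 and H2AC19 0 in all libraries.

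The 2 TF classes were compared by edgeR's quasi-likelihood test over 15012 genes, with the 4 TFs of a class in place of replicates, so the spread is that between TFs. It called 6 genes, or 0.0400%, at an adjusted p of at most 0.05, and 0 of the 25 members tested. The lowest adjusted p among them was 0.425. At an unadjusted p under 0.05 there were 4 members (16.0%) against 1531 of all genes (10.2%), and the DESeq2 test called 0 of 39. Those 4 members were all H2B genes higher in the CLB_TF class. The count of 4 moved with single libraries: it was 0 without EGR1, 1 without NRF1, TFCP2 or NKX2-8, 3 without HOXA11 or RORA, 5 without ZBTB7A and 6 without E2F4. H2BC12 was at 74.2 ± 7.44 CPM (SD, n = 4) against 65.2 ± 6.18, a log2FC of 0.20 with an SE of 0.09. H2BC21 was at 9.78 ± 2.27 against 7.32 ± 0.686 CPM, a log2FC of 0.43 with an SE of 0.17. For H2BC26 and H2BC18 the log2FC was 0.50 and 0.74. The values of both classes overlapped in all 4. The median log2FC over the 25 was 0.22, with 20 above 0 and 5 below, against 0.00 over all genes tested.

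The genes whose pattern over the 9 libraries was most like the summed level of the members were FAM43B (Pearson r of 0.928 on log2 CPM), GPAT3 (0.920), ACE (0.914), UFC1 (0.898) and SCN4B (0.897). They were picked from 10904 protein-coding genes at a mean of at least 5 CPM. The points share the libraries and their depth, and with 9 points the highest of so many values is a description of these libraries.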

How the data were processed

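RNA-seq of 293T cells had 1 library per condition, 9 in all. The authors checked reads with FastQC 0.11.2, aligned the pairs to GRCh37 (STAR 2.6.0c) and used featureCounts 1.6.3 to count those with a unique position over each gene. Hence the deposited table holds raw counts with no normalization. The kit is directional per the labels, but for the counting no strand setting is given in the sources used. The members, lists and named-gene rule were chosen with earlier results of these data known. TF classes come from the methods of the study.

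Symbols, coding sequences and stem-loops came from GENCODE v44lift37 and the GRCh37 genome, where 35408 of 36202 Ensembl identifiers had a symbol. All 61 member coding sequences began with ATG there. TMM scaling was done with edgeR 4.0.16 under R 4.3.3. CPM per kb used the exon length of the table. Ratios have exact conditional binomial 95% intervals. The floor is 3 counts, 0.163 to 0.207 CPM in a library. The 4 CLB_TF and 4 control TF libraries were compared by the quasi-likelihood test after filterByExpr, with Benjamini-Hochberg adjustment over all genes. That test was tested on simulated counts. For 1 library against 1, no p-value is given. Named genes were the 2 highest members per type by CPM per kb, the members with the largest changes at a mean of at least 5 CPM, every changed member and the largest changes of each list. H1-6, the genes with an unadjusted p under 0.05, the partners in divergent pairs and the other members given by range were named after their values were seen. Alternatives were library totals or DESeq2 1.42.0 size factors, the averaged other control TF libraries as reference, a minimum of 5 CPM, a prior count of 0.5, the DESeq2 test, no filter, a robust fit, leaving out each TF library and leaving out the most abundant member of each type.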

Additional observations from a re-analysis of the deposited data

Results flagged for a closer look

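Within each class of 4 TF libraries, the levels of the 25 members at a mean of at least 0.5 CPM, of the 5 types and of all members together were checked on the log2 scale for a library whose gap to its neighbour, as a share of the range, passed Dixon's 95% critical value. Of 62 such groups 4 had one, and chance gives about 1 in 20 (5%). H2AC20 was at 0.276 CPM in the ZBTB7A library, 4 counts, where the nearest CLB_TF library, E2F4, was at 0.784. H2AC6 was at 8.96 CPM in NKX2-8, where the nearest control TF library, HOXA11, was at 4.58. H2BC17 was at 0.401 CPM in TFCP2, 7 counts, where the nearest, RORA, was at 0.725. Summed H3 was at 6.98 CPM in TFCP2, where the nearest, NKX2-8, was at 5.44. The causes were not tested.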

How the results depend on the processing

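With 1 library per condition and mostly under 50 counts per member, counting error limits each call. The number of changed members moved under several settings. At a minimum of 5 CPM it was 1 in NRF1 and in NKX2-8 (H2AC6 in both) and 0 in E2F4, EGR1, ZBTB7A, HOXA11 and TFCP2, since few members are at that level. Against the average of the other control TFs it was 0 in E2F4, EGR1, ZBTB7A and TFCP2 and 1 in HOXA11 (H4C14, not among the 2 reported), while NRF1 had 4 (H2BC18, H2BC4, H3C6 and H4C8, 3 of them shared with the 6) and NKX2-8 the same 3. EGR1 had 2 with library totals and 3 with a prior count of 0.5, and RORA had 2 with that prior count, H4C14 and H4C5. The median log2FC was 0.53 in NRF1 with library totals and -0.26 in TFCP2 at a minimum of 5 CPM, and the other 38 of 40 values moved by less than 0.131. The span of the summed level was 1.64 with library totals for all members and 1.69 for H2B. Without the most abundant member of each type it was 1.75 for all members, 2.74 for H1, 2.27 for H2A, 1.74 for H2B and 3.61 for H3. For H1 the extremes then were E2F4 and RORA in place of TFCP2 and EGR1, for H2A the lowest was ZBTB7A in place of TFCP2, and for H4 the highest was NRF1 in place of NKX2-8. The test of the TF classes called 0 members under all 12 alternatives, among them leaving out each TF library. The causes were not tested. No paired analysis was possible because each condition had 1 library and the replicate number 1 pairs nothing.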
